A study of Mus musculus with 2 samples.

Results

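Otx2-positive neural progenitors of the midbrain were taken from single-cell libraries of sorted E11.5 mouse heads by their raw transcript counts. A member had at least 3 UMIs (unique molecular identifiers, 1 for each captured transcript) of *Sox2*, *Sox3* and *Hes5* summed, at least 1 UMI of *Otx2*, at most 2 UMIs of the neuron genes *Elavl3* and *Stmn2* summed, and at most 1 UMI of the mesenchyme genes *Prrx1*, *Prrx2* and *Twist1* summed. It also had no UMI of *Sox10* (glia and Schwann cells), of *Fgf8* or *Fgf17* (isthmus) or of *Lmx1a* (roof and floor plate), and fewer than 10 UMIs of *Ttr* (choroid plexus). These rules found 834 members among 11212 kept cells. The control library held 287 members of 5625 kept cells, 5.10% with a 95% Clopper-Pearson interval of 4.54 to 5.71%. The mutant library held 547 of 5587, 9.79% with an interval of 9.02 to 10.6%. These shares are of sorted cells, so they also move with every other population in the sort. Mesenchyme cells, defined by at least 3 UMIs of its 3 genes and none of the progenitor genes or *Sox10*, made up 59.4% of kept control cells and 42.8% of kept mutant cells. Among progenitors that met every other rule, with or without *Otx2*, the members were 59.4% (54.9 to 63.8%) in control. In mutant they were 70.5% (67.1 to 73.7%), and this difference was not tested.

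*Otx2* encodes a homeodomain transcription factor of the forebrain and midbrain whose expression ends at the isthmus, the border with the hindbrain. Progenitors line the ventricle there, keep dividing under SOX2, SOX3 and the Notch effector HES5, and leave the cell cycle as proneural factors such as NEUROG2 are switched on. The dorsal, or alar, part of this tissue carries PAX3 and PAX7, the ventral part lies near the source of Sonic hedgehog, and the tissue beside the isthmus carries EN1, EN2 and PAX5. The *Wnt1:CRE* transgene is best known for labelling cranial neural crest, but it is also active in the dorsal neural tube and the midbrain, so that brain progenitors enter a sort for its reporter.

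The study removed *Tfap2a* and *Tfap2b*, which encode the transcription factors AP-2α and AP-2β, from *Wnt1:CRE* lineages, and profiled GFP-positive cells from the heads of littermates. Control embryos (*Tfap2* HET) were wt/flox at *Tfap2a* and wt/flox at *Tfap2b*, and mutant embryos (*Tfap2* NCKO) were flox/flox at both genes. Embryos of both groups were mTmG/mTmG at *r26*, the reporter that turns from red to green after CRE, and carried *Wnt1*CRE+. The control is therefore heterozygous rather than wild type. Each group was 1 library from a pool of 2 embryos, so there was no replicate, no test across samples was possible, and every interval given here covers counting error only.

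The libraries held 83542433 control and 79206144 mutant UMIs in 6148 and 6063 barcodes, of which 523 and 476 were removed for fewer than 200 or more than 7500 genes or over 10% mitochondrial UMIs. Depth was alike in the members, with medians of 12193 and 11629 UMIs and 3929 and 3767 genes per cell. The pools differed in sex. *Xist*, the RNA that silences the second X chromosome, summed to 1191 CPM (a gene's UMIs scaled to 1000000 UMIs summed over the members of a library) in control and 0.151 in mutant, and the Y-linked *Ddx3y* had 0 control and 313 mutant UMIs. With 1 pool of each, a difference given below cannot be told apart as one of genotype or one of sex. The libraries shared 6 barcodes, none of them among the members, and Scrublet marked 0 control and 2 mutant members as doublets.

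The gate genes describe how the members were chosen and are no result. *Otx2* stood at 379 CPM in control members and 384 in mutant members, *Sox2* at 411 and 407, *Sox3* at 137 and 144, and *Hes5* at 828 and 824. At the threshold, 37 control members (12.9%) and 67 mutant members (12.2%) had exactly 1 *Otx2* UMI, and 196 control and 229 mutant cells that met every other rule had none. The sum of *Sox2*, *Sox3* and *Hes5* was exactly 3 in 6 control and 15 mutant members. The neuron sum was 2 in 63 (22%) and 99 (18.1%) members, and a sum of 3 kept 33 control and 47 mutant cells just outside. The mesenchyme sum was 1 in 47 (16.4%) and 81 (14.8%) members, and 7 and 14 cells lay just outside with 2.

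The label was checked against the Otx2-negative progenitors, the 196 and 229 cells that met every rule except *Otx2*. Midbrain genes that the rule did not use were high in the members of both libraries. *Mab21l2*, a gene of the dorsal midbrain and eye, stood at 192 CPM in control and 199 in mutant members against 12.2 and 25.7 in Otx2-negative progenitors. *Otx1*, the paralogue of *Otx2*, stood at 41.6 and 34.2 CPM against 4.70 and 5.47. *Dmbx1*, a homeobox gene of the midbrain and diencephalon, stood at 30.6 and 26.5 CPM against 1.41 and 1.26. *Tal2* and *Helt*, which act in the GABAergic neurons of the midbrain, were also high in the members, with *Tal2* at 40.0 and 45.1 CPM against 4.70 and 3.79. Hindbrain and spinal genes were low in the members. *Hoxb2* stood at 1.10 and 1.81 CPM against 61.2 and 46.7, *Msx3* at 2.48 and 2.71 against 185 and 207, *Olig3* at 4.69 and 3.32 against 115 and 126, and *Atoh1* of the rhombic lip at 0.551 and 0.151 against 113 and 87.5. None of the 14 hindbrain markers had 100 UMIs in the members, and all 14 summed to 36 control and 75 mutant UMIs. These cells were separated by *Otx2* itself, so the contrasts describe what the gate holds and were not tested. The plot of regional genes shows that each library gave the same picture.

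**Figure D1:**
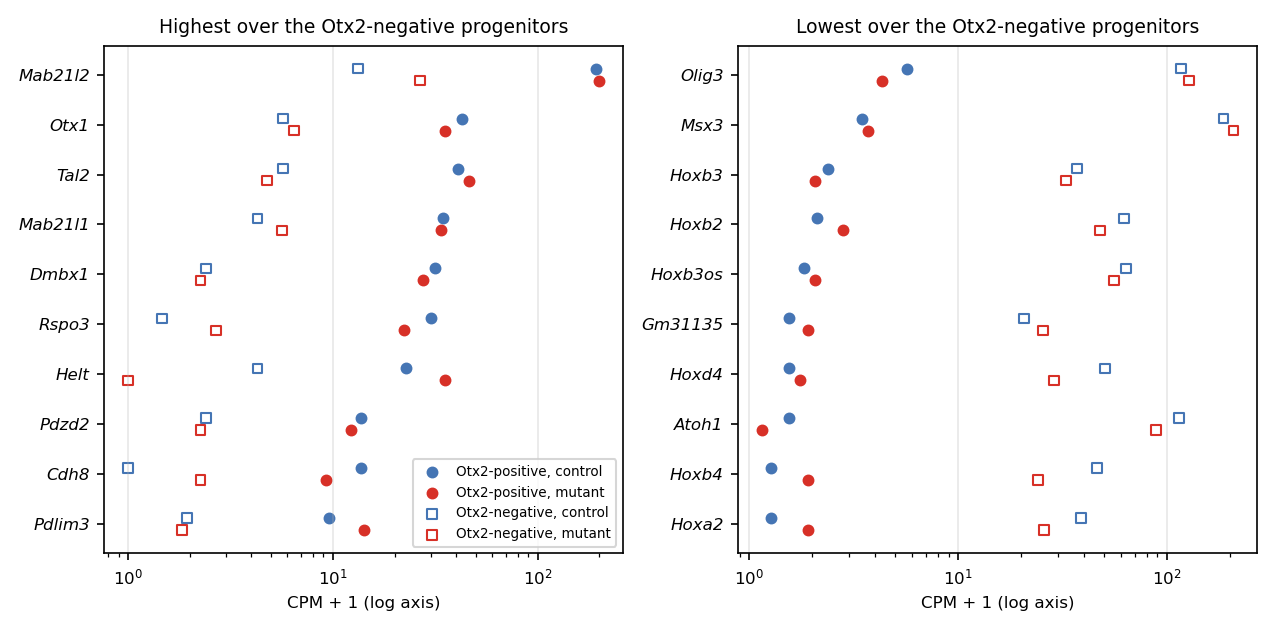
Level (CPM + 1, log axis) of the 10 genes highest (left) and the 10 lowest (right) in Otx2-positive members (filled circles) relative to Otx2-negative progenitors (open squares), in control (blue) and mutant (red). *Mab21l2* reached 192 and 199 CPM in the members, and *Hoxb2* stayed at 1.10 and 1.81.

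*Tfap2a* and *Tfap2b*, the deleted genes, had very few transcripts in the members of both libraries. *Tfap2a* had 3 UMIs in 3 of 287 control cells and 6 UMIs in 4 of 547 mutant cells, which is 0.827 CPM (exact Poisson interval 0.171 to 2.42) and 0.905 CPM (0.332 to 1.97). *Tfap2b* had 5 control and 24 mutant UMIs, 1.38 CPM (0.447 to 3.22) and 3.62 CPM (2.32 to 5.39), a log2 ratio of mutant over control of 1.39 with a conditional binomial interval of -0.03 to 3.14. Mesenchyme of the same libraries held 19.1 and 14 CPM of *Tfap2a* and 57.0 and 48.2 CPM of *Tfap2b*. After each cell was thinned to 5000 UMIs, 0.351% of control and 0.556% of mutant members had a *Tfap2a* UMI, against 7.93% and 6.38% of mesenchyme cells. The other family members *Tfap2c*, *Tfap2d* and *Tfap2e* had 3, 3 and 0 control UMIs and 2, 6 and 8 mutant UMIs. 3′ counts of a floxed gene do not separate intact from recombined transcripts, so these values do not check the genotype labels, and no loss of either gene could be measured in cells where it was at or near the limit of counting.

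Across 8431 genes with at least 100 UMIs summed over the members of both libraries, the profiles were close. The median log2 ratio of mutant over control was -0.01, with quartiles of -0.13 and 0.10. With 1 library a group, a gene was called when its CPM differed by 1.5-fold or more. By this rule 83 genes were higher in mutant members, 0.984% of those tested, and 96 were lower, 1.14%, together 2.12%. The counting interval excluded equal levels for 79 of the 83 and for all 96. The share of all tested genes whose interval excluded 0 is not given here. Counts of such intervals in a list therefore have no background beside them, and they rise with abundance. Of the 666 genes in the 32 fixed lists, 384 passed the count filter, and the lists below are described against these percentages and against the median over all genes.

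**Figure D2:**
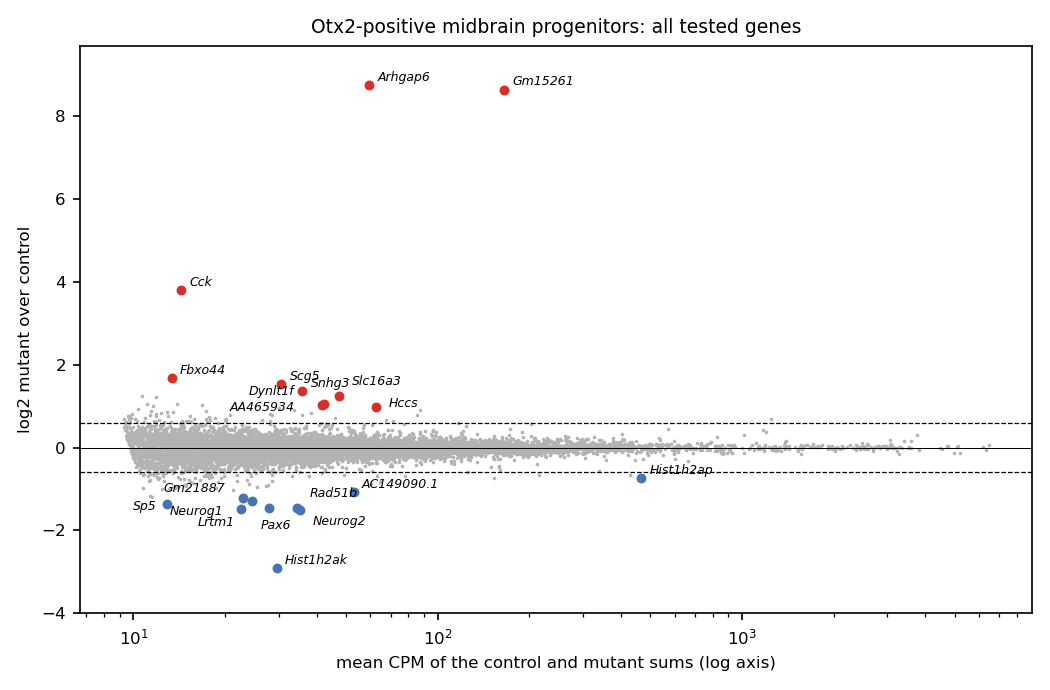
Log2 ratio of mutant over control against the mean CPM of the members of both libraries (log axis), 1 point per tested gene, with the sex-linked genes of the fixed list left out and dashed lines at 1.5-fold. Of 8431 genes tested, 83 were called higher and 96 lower. These counts include 10 sex-linked genes that are not drawn, 4 of them called higher and 4 lower. The 10 genes farthest above and below by their counting interval are named.

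The members were then divided by marker genes into 6 overlapping domains. Alar members had at least 2 UMIs of *Pax3* and *Pax7* and were the most numerous, 161 of 287 in control (56.1%) and 306 of 547 in mutant (55.9%). Dorsal midline members, with a UMI of *Wnt1*, *Wnt3a*, *Msx1* or *Gdf7*, made up 11.8% and 13.0%. Ventral members, with a UMI of *Foxa1*, *Foxa2*, *Shh*, *Nkx6-1* or *Nkx2-2*, made up 18.5% and 15.5%. Neurogenic members, with at least 3 UMIs summed over neurogenic genes that included *Neurog1*, *Neurog2*, *Dll1* and *Gadd45g*, made up 41.1% and 40.6%. In each of these 4 domains the intervals of the libraries overlapped.

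The domains at the rostral and caudal edges held a lower share of the mutant members, with intervals that overlapped at their ends. Forebrain side members, with at least 3 UMIs summed over forebrain genes that included *Pax6*, *Six3*, *Emx2*, *Lhx2* and *Rax*, were 28 of 287 in control, 9.76% (6.58 to 13.8%), and 26 of 547 in mutant, 4.75% (3.13 to 6.89%). Isthmus side members, with at least 3 UMIs of *En1*, *En2*, *Pax2*, *Pax5* and *Pax8*, were 36, 12.5% (8.94 to 16.9%), and 37, 6.76% (4.81 to 9.20%). The numbers of cells in these domains were thus nearly equal between libraries, 28 and 26 and 36 and 37, while the members as a whole were 287 and 547. At 5000 UMIs per cell the forebrain side shares were 4.21% (2.19 to 7.24%) and 1.67% (0.765 to 3.14%), and the isthmus side shares 4.56% (2.45 to 7.67%) and 2.22% (1.15 to 3.85%), and the intervals overlapped in both. Mesenchyme at the same depth passed the forebrain side rule in 1.45% and 1.95% of cells, close to the mutant share of 1.67%. Mesenchyme itself held 202 and 208 CPM summed over the forebrain and eye list, so its share is no plain background level. Before thinning, *Nkx2-1*, which the rule did not use, stood at 59.6 and 167 CPM in forebrain side members against 3.07 and 0.316 outside. Mesenchyme passed the isthmus side rule in 0.0301% and 0.0423%. It passed the dorsal midline rule in 44.9% and 32.9%, since *Msx1* is also a gene of facial mesenchyme.

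**Figure D3:**
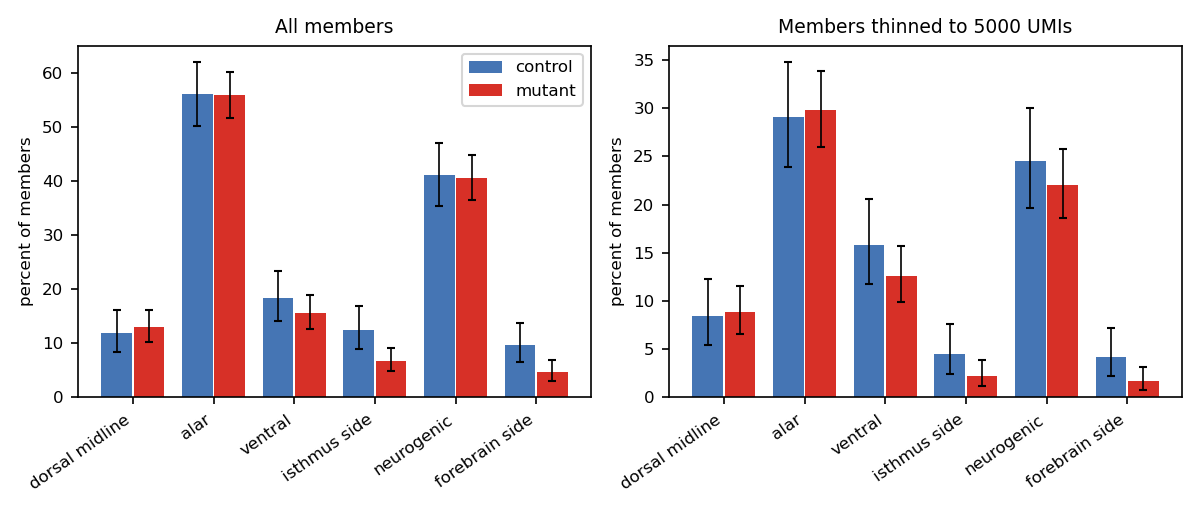
Percent of members in each of the 6 marker-defined domains in control (blue) and mutant (red), with 95% Clopper-Pearson intervals, for all members (left) and for members thinned to 5000 UMIs (right). Alar shares were 56.1% and 55.9%, while forebrain side shares were 9.76% and 4.75% before thinning and 4.21% and 1.67% after it.

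Genes that led a domain without being used to define it were high there in both libraries. In ventral members *Spon1*, the floor plate gene for F-spondin, stood at 336 CPM in control and 272 in mutant against 2.95 and 2.64 outside. In dorsal midline members *Rspo3*, a Wnt agonist, stood at 161 and 140 CPM against 9.80 and 3.47. In isthmus side members *Cnpy1*, an FGF signalling component of that border, stood at 242 and 150 CPM against 16.4 and 28.9. In alar members *Mab21l2* stood at 277 and 269 CPM against 65.8 and 92.7.

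*Neurog2* and *Neurog1* were lower in mutant members, while *Hes6*, *Pou3f2* and *Cdkn1c*, the abundant genes named from the same list, were within 1.5-fold. Of 21 tested genes of neurogenesis, 4 were called lower and none higher, 6 had a ratio above 0, and the median was -0.17. Without members that had an *Elavl3* or *Stmn2* UMI, which mark cells that have begun to differentiate, the median was 0.06. That median is over all 21 genes and does not give the ratios of the 4 called ones. *Neurog2*, the bHLH factor that starts neuronal differentiation in the ventral midbrain (chr3:127633135-127635631, GRCm38), had 190 UMIs or 52.4 CPM (45.2 to 60.4) in control members and 122 UMIs or 18.4 CPM (15.3 to 22) in mutant members, a log2 ratio of -1.51 (-1.85 to -1.17). Its transcripts came from few cells. In each library 28 members held all of them, and the 10 highest cells held 77.4% in control and 70.5% in mutant. At 5000 UMIs per cell 7.37% of control and 4.26% of mutant members had a *Neurog2* UMI, against 0.271% and 0.550% of mesenchyme cells. *Neurog1*, its paralogue, stood at 33.1 CPM (27.4 to 39.5) and 11.9 CPM (9.43 to 14.8), a log2 ratio of -1.47 (-1.90 to -1.05), in 36 and 30 cells. *Insm1*, a zinc finger gene of newborn neurons, had a log2 ratio of -0.66 (-1.22 to -0.10), and *Elavl4*, a neuronal RNA-binding protein gene, one of -0.87 (-1.26 to -0.48). In alar members alone these were -0.15 and -0.57.

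*Hes6*, a bHLH gene that promotes differentiation, stood at 181 and 171 CPM, with a log2 ratio of -0.08 (-0.22 to 0.06), and the POU factor gene *Pou3f2* at 220 and 222 CPM. *Cdkn1c*, which encodes the cell-cycle inhibitor p57, was within 1.5-fold at 394 and 321 CPM, a log2 ratio of -0.29 (-0.39 to -0.20). *Dll1* and *Dll3*, the Notch ligands of cells entering neurogenesis, had log2 ratios of -0.06 and -0.01, both with intervals that included 0. In Otx2-negative progenitors of the same libraries *Neurog2* had a log2 ratio of -0.75 (-1.22 to -0.28) and *Neurog1* one of -0.66 (-1.21 to -0.11). The difference between the populations was not tested.

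Within domains the *Neurog* genes were lower in ventral and alar members and not in dorsal midline members. Ventral members held 74.2% of control and 88.5% of mutant *Neurog2* UMIs, and there it stood at 243 and 115 CPM, a log2 ratio of -1.08 (-1.46 to -0.71). *Neurog1* stood at 34.6 and 10.5 CPM in alar members, a log2 ratio of -1.72 (-2.30 to -1.16), and at 67.2 and 26.6 CPM in ventral members, one of -1.34 (-2.12 to -0.58). In dorsal midline members *Neurog2* had 17 control and 33 mutant UMIs, a log2 ratio of 0.07 (-0.82 to 1.00), and *Neurog1* had 1 and 11 UMIs. With the forebrain side and isthmus side members left out, an alternative added after the data were seen, *Neurog2* had a log2 ratio of -1.68. *Neurog1* lies at chr13:56250478-56252163, 15.5 Mb from the floxed *Tfap2a* locus, a distance that bears on it as described with the linked genes below.

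Among regional transcription factors, *Pax6*, *En1*, *Pax5* and *Helt* were called and the abundant midbrain factors were within 1.5-fold. *Pax6*, which marks the diencephalon and stops at its border with the midbrain, stood at 40.8 CPM (34.5 to 47.9) in control and 14.9 CPM (12.1 to 18.2) in mutant members, a log2 ratio of -1.45 (-1.83 to -1.07). It had UMIs in 32 cells of each library. It stood at 43.8 and 13.0 CPM in alar members and at 44.8 and 16.0 CPM in ventral members. Both domains overlap the forebrain side members, which held 91.9% of control and 81.8% of mutant *Pax6* UMIs. Within forebrain side members, chosen in part by *Pax6*, its log2 ratio was -0.50 (-0.91 to -0.09). With edge members left out, which removes cells by *Pax6* itself, 12 control and 18 mutant UMIs remained, a log2 ratio of -0.48 (-1.61 to 0.71). *Tcf7l2*, a Wnt effector abundant in the thalamus, stood at 190 and 131 CPM, a log2 ratio of -0.54 (-0.68 to -0.39), within 1.5-fold. These were the only forebrain and eye markers that passed the count filter.

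*En1* and *Pax5*, transcription factor genes maintained by the isthmus, were the 2 called among 16 tested midbrain and isthmus factors, whose median was -0.11. *En1* had 66 control and 61 mutant UMIs, 18.2 CPM (14.1 to 23.1) and 9.20 CPM (7.04 to 11.8), and *Pax5* had 65 and 62, 17.9 CPM (13.8 to 22.8) and 9.35 CPM (7.17 to 12). In both the UMIs were nearly equal and the members were not, as for the isthmus side cells themselves. *En2*, the broader paralogue of *En1*, stood at 31.1 and 27.9 CPM, a log2 ratio of -0.16 (-0.50 to 0.19). *Meis2*, *Nr2f1* and *Irx3*, the abundant factors of the list with *Nr2f2*, had log2 ratios of 0.02, -0.21 and -0.08. Without members that had an *Elavl3* or *Stmn2* UMI the log2 ratio of *En1* was -0.37. Without the forebrain side and isthmus side members, which are chosen in part by *En1* and *Pax5*, *En1* kept 8 control and 16 mutant UMIs, a log2 ratio of -0.06, and *Pax5* kept 1 and 15. In Otx2-negative progenitors *En1* was higher in the mutant, at 24.5 and 35.8 CPM.

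Most alar and dorsal genes were within 1.5-fold, and *Helt* was called. *Pax3*, which specifies the alar plate, stood at 195 CPM (181 to 210) and 204 CPM (194 to 216), and *Pax7* at 27.3 and 26.1 CPM. *Mab21l2* had a log2 ratio of 0.05 (-0.08 to 0.19), and *Zic1*, a zinc finger gene of the dorsal midline, one of -0.32 (-0.49 to -0.15). Of 15 tested genes 1 was called higher and none lower, and the median was -0.06. The counting interval lay below 0 for 4 of them. The called gene was *Helt*, the selector of midbrain GABAergic fate, at 21.8 CPM (17.2 to 27.1) in control and 34.2 CPM (29.9 to 39.0) in mutant members. *Helt* was found in 13 control and 43 mutant cells, and 10 cells held 96.2% and 61.7% of it. Its ratio came under 1.5-fold when every cell had equal weight (log2 0.32) or was thinned to 5000 UMIs (0.53). In ventral members it had 29 control and 190 mutant UMIs, a log2 ratio of 2.01 (1.45 to 2.63), while *Neurog2* in those cells was lower. Ventral members held 36.7% of control and 83.7% of mutant *Helt* UMIs, so its higher level over all members lay in that domain.

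Of 3 tested roof plate and choroid genes *Folr1*, a folate receptor gene, was called higher at 7.72 and 12.5 CPM (log2 0.70, 0.06 to 1.37, and 0.39 in members with no mesenchyme gate UMI), while *Rspo1* stood at 23.7 and 26.8.

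No ventral or floor plate gene was called among 8 tested, and the median was 0.02. *Nkx6-2*, a homeobox gene of ventrolateral progenitors, was higher within 1.5-fold at 49.3 and 72.4 CPM, a log2 ratio of 0.55 (0.30 to 0.81). *Shh*, the ventral morphogen, was lower within 1.5-fold at 42.2 and 28.2 CPM, one of -0.58 (-0.90 to -0.26). Both passed 1.5-fold without the forebrain side and isthmus side members, where *Nkx6-2* had a log2 ratio of 1.15 (0.80 to 1.51) and *Shh* one of -1.07 (-1.43 to -0.72). *Dbx1* and *Slit2* had log2 ratios of 0.11 and 0.12, with intervals that included 0. Most genes that led the ventral members were lower there in the mutant, among them *Sim1* at 82.8 and 28.7 CPM. The exceptions were *Nkx2-9* at 32.8 and 54.2 CPM in ventral members, *Sulf1* at 190 and 204, and *Pdlim3* at 37.9 and 72.3. *Lrtm1*, among the 10 lowest of all tested genes, stood at 34.7 and 14.3 CPM in all members and at 198 and 81.9 CPM in ventral members, where it had 91.3% and 81.1% of its UMIs. *Dmrta2* and *Igfbp5* were compared by domain after their values were seen. *Dmrta2*, a DM-domain factor gene, stood at 195 and 126 CPM in ventral members. *Igfbp5*, which encodes a secreted binding protein of insulin-like growth factors, stood at 290 and 108 CPM in ventral members, a log2 ratio of -1.42 (-1.79 to -1.05), and at 41.0 and 39.2 CPM in alar members. The plot of called genes by domain shows these splits, which were not tested as differences between domains.

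**Figure D4:**
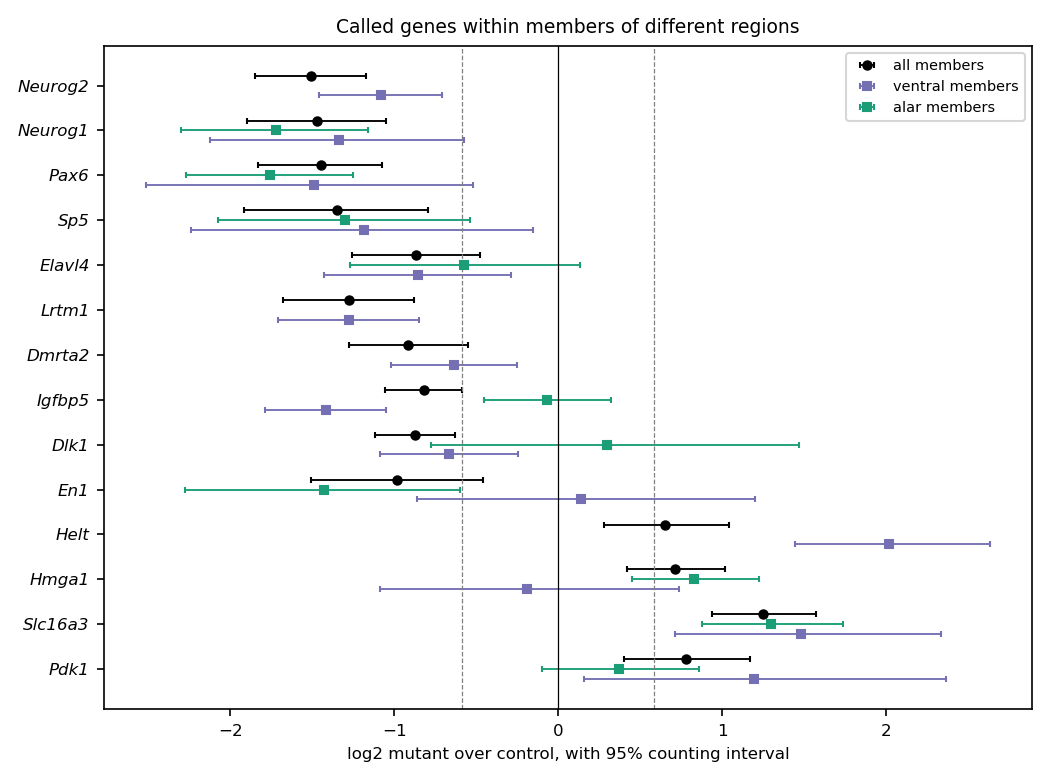
Log2 ratio of mutant over control with its 95% counting interval for 14 called genes in all members (black), ventral members (purple) and alar members (green), with dashed lines at 1.5-fold. A domain is drawn where its members had at least 30 UMIs of the gene over both libraries and it was not chosen by that gene. *Neurog2* was lower in ventral members (-1.08), *Igfbp5* was lower in ventral (-1.42) and level in alar members (-0.07), and *Helt* was higher in ventral members (2.01).

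Signalling pathways were close to level, with Wnt and Notch genes lower in sum by small ratios. Of 32 tested Wnt genes 1 was called, *Sp5*, a transcriptional target of Wnt signalling, at 18.5 CPM (14.3 to 23.5) in control and 7.24 CPM (5.34 to 9.60) in mutant members, a log2 ratio of -1.35 (-1.92 to -0.79). It was lower in alar members, at -1.30 (-2.08 to -0.54), and in ventral members, at -1.18 (-2.24 to -0.16). *Axin2*, another target of the pathway, stood at 59.0 and 56.1 CPM, a log2 ratio of -0.07 (-0.32 to 0.18), and the ligand gene *Wnt1* at 24.0 and 30.0 CPM. The core genes *Ctnnb1*, *Gsk3b*, *Fzd3* and *Wls* had log2 ratios between -0.10 and 0.05. A ratio above 0 was found for 12 Wnt genes, and the median was -0.06. The counting interval lay below 0 for 7 and above 0 for 1. Summed over the tested Wnt genes the log2 ratio was -0.10 (-0.13 to -0.06).

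Of 27 tested Notch genes 1 was called, the atypical ligand *Dlk1*, at 78.3 CPM (69.4 to 87.9) and 42.7 CPM (37.9 to 48.0). Forebrain side members held 67.6% and 55.1% of its UMIs and had 520 and 502 CPM, a log2 ratio of -0.05 (-0.36 to 0.26), while the log2 ratio was 1.16 (0.44 to 1.94) in dorsal midline, -0.67 (-1.09 to -0.25) in ventral and -1.38 (-2.45 to -0.39) in isthmus side members. *Notch1*, *Nrarp* and *Dtx4* had log2 ratios of 0.05, -0.09 and 0.13. The counting interval lay below 0 for 3 Notch genes and above 0 for none. Summed over the tested Notch genes the log2 ratio was -0.10 (-0.15 to -0.05). *Dlk1* is also a gene of mesenchyme, and it was the one gene of the mesenchyme list with enough counts in the members.

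Among 16 FGF genes, *Flrt1*, a receptor partner, was called lower at 22.6 and 13.7 CPM (log2 -0.72, -1.17 to -0.27, and -0.49 in alar members), and the median was 0.03. *Fgf15* stood at 98.9 and 108 CPM and *Fgfbp3*, which releases FGFs from the matrix, at 81.9 and 110 CPM (log2 0.43, 0.24 to 0.63). Hedgehog genes (11 tested), BMP and TGFβ genes (20 tested) and retinoid genes (9 tested) had no called member and medians of -0.17, -0.01 and 0.14. Their leading genes were *Gas1* at 206 and 238 CPM, *Gli3* at 125 and 129, *Ptch1* at 62.0 and 55.0, *Id3* at 519 and 505, and *Crabp2* at 530 and 545. In none of the 20 BMP and TGFβ genes did the counting interval exclude equal levels. Of 25 ephrin and guidance genes 2 were called lower, *Epha3* with a log2 ratio of -0.93 (-1.43 to -0.43), which was -0.23 in thinned members, and *Plxna2* with -0.68 (-1.22 to -0.13), which was -0.31 with the progenitor sum at 6 or more and -0.45 without edge members. The median was -0.04. *Efna2* and *Efna5*, ephrins that are graded across the tectum, had log2 ratios of 0.05 and -0.06. Of 7 cadherins *Cdh8* was called lower (log2 -0.61, -1.20 to -0.01, and -0.54 with at least 2 *Otx2* UMIs), while the main cadherin of the neuroepithelium, *Cdh2*, stood at 175 and 173 CPM.

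The genes of the progenitor state itself were even. Of 37 tested radial glia and progenitor genes 1 was called higher and 2 lower, and 17 had a ratio above 0. *Ckb* stood at 2038 and 2055 CPM, *Mdk* at 1183 and 1182, *Vim* at 1215 and 1143, and *Fabp7*, the brain lipid-binding protein gene, at 911 and 1117 (log2 0.29, 0.23 to 0.35). *Hmga1*, a chromatin protein gene of dividing progenitors, was called higher at 34.7 CPM (28.9 to 41.3) and 56.9 CPM (51.3 to 62.9), found in 96 control and 238 mutant cells. It was higher in alar members (log2 0.83, 0.45 to 1.22) and at -0.19 (-1.09 to 0.74) in ventral members. *Slc1a3*, the glutamate transporter GLAST, was called lower at 21.5 and 13.9 CPM (log2 -0.63, and -0.56 with equal weight per cell), and *Pax6*, counted here too, was the other.

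Genes of the cell cycle gave 1 call. None of 43 tested S phase genes was called, 8 had a ratio above 0, 12 had an interval below 0, and the median was -0.10. *Pcna* stood at 466 and 429 CPM and *Nasp*, a histone chaperone gene, at 929 and 891. Of 54 G2 and M phase genes *Gas2l3* was called lower (log2 -0.85, -1.34 to -0.36), 24 had a ratio above 0 and the median was -0.01. *Top2a* stood at 658 and 544 CPM (log2 -0.28, -0.35 to -0.20) and *Hmgb2* at 2379 and 2560 (log2 0.11, 0.07 to 0.14). Per cell at 5000 UMIs, the S phase genes had medians of 35 and 33 UMIs and the G2 and M phase genes of 52 and 54.

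Genes of glycolysis and the hypoxia response were mostly higher in mutant members, by small ratios. Of 24 tested genes 22 had a ratio above 0, and the median was 0.34, against -0.01 over all tested genes. The counting interval lay above 0 for 18 and below 0 for none. Many of these genes are abundant, with a median interval half-width of 0.16, so small ratios clear 0 easily. The count of 18 has no share over all genes beside it. Called higher were *Slc16a3*, which encodes the lactate exporter MCT4, and *Pdk1*, whose kinase keeps pyruvate out of the mitochondria. *Slc16a3* had 102 UMIs or 28.1 CPM (22.9 to 34.1) in control and 443 UMIs or 66.8 CPM (60.7 to 73.3) in mutant members, a log2 ratio of 1.25 (0.94 to 1.57). It was found in 74 of 287 and 260 of 547 cells. *Pdk1* stood at 20.9 CPM (16.5 to 26.2) and 35.9 CPM (31.5 to 40.8), one of 0.78 (0.40 to 1.17), which was 0.37 (-0.10 to 0.86) in alar members. The abundant enzymes were higher by less than 1.5-fold. *Ldha*, lactate dehydrogenase A, stood at 1043 CPM (1010 to 1077) and 1362 CPM (1334 to 1390), *Pgam1* at 752 and 900, *Pkm* at 1320 and 1468, and *Gapdh* at 3209 and 3592. *Vegfa* and *Hk2*, hypoxia targets named after their values were seen, had log2 ratios of 0.58 (0.21 to 0.96) and 0.56 (0.26 to 0.86). Summed over the list and counted per cell at 5000 UMIs, the median was 45 UMIs (quartiles 38 and 55) in control and 55 UMIs (quartiles 44 and 65) in mutant members.

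The same direction was seen in *Slc16a3* across all 6 domains, from 0.82 (0.04 to 1.67) in dorsal midline to 1.64 (0.41 to 3.03) in forebrain side members. It was seen beyond the brain as well. In mesenchyme the 24 genes had a median log2 ratio of 0.33, 22 above 0, and in Otx2-negative progenitors the 21 with 100 UMIs had one of 0.11, 16 above 0. Summed over the list, the log2 ratios were 0.23 (0.21 to 0.25) in the members, 0.14 (0.11 to 0.16) in Otx2-negative progenitors and 0.17 (0.16 to 0.17) in mesenchyme. The populations come from the same pools, so these values are not independent, and the differences between them were not tested.

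**Figure D5:**
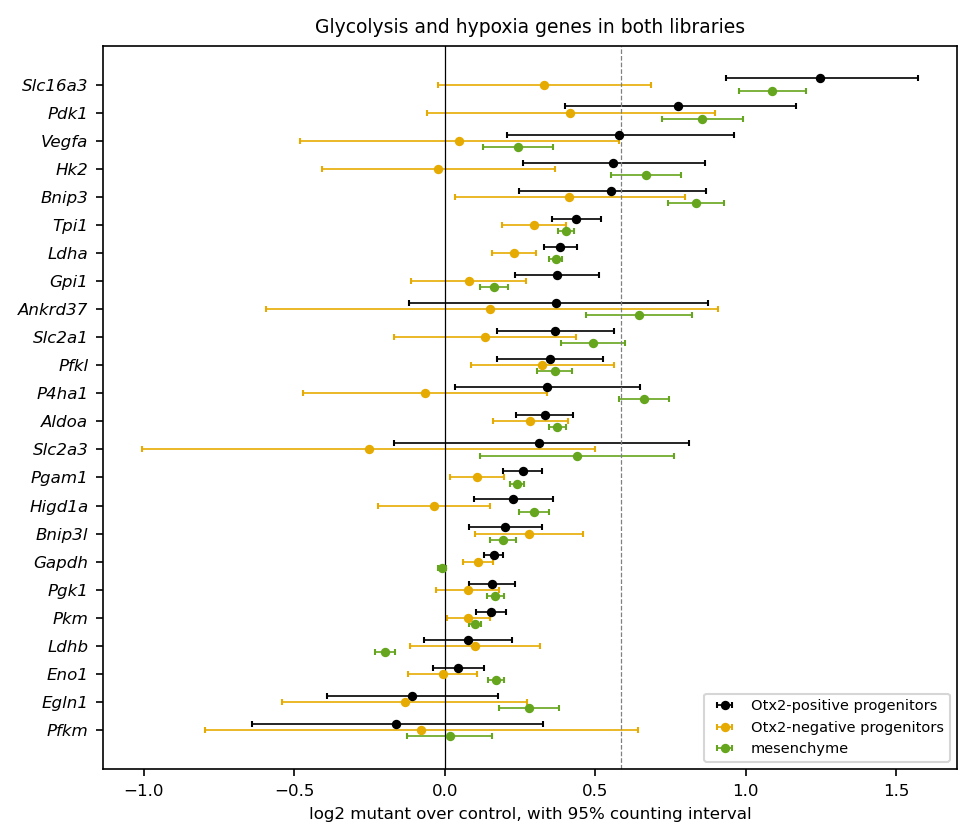
Log2 ratio of mutant over control with its 95% counting interval for the 24 tested glycolysis and hypoxia genes in Otx2-positive progenitors (black), Otx2-negative progenitors (yellow) and mesenchyme (green), with a dashed line at 1.5-fold. In Otx2-positive progenitors 22 of 24 lay above 0, led by *Slc16a3* (1.25) and *Pdk1* (0.78).

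Hypoxia-inducible factors bind the core letters ACGTG or GCGTG, read on either strand. The 250 bases before the first start that RefSeq lists are shown for both called genes and for the abundant *Ldha*. Such letters were not searched for elsewhere in or around the genes. The windows are chr11:120948817-120949066, chr2:71872974-71873223 and chr7:46845554-46845803 of GRCm38.p6, all on the plus strand and written 5′ to 3′, with each match in capitals. The *Slc16a3* window lies within the gene as GENCODE M21 draws it, which starts at 120948480. The genes and windows were chosen after the values were seen.
Slc16a3: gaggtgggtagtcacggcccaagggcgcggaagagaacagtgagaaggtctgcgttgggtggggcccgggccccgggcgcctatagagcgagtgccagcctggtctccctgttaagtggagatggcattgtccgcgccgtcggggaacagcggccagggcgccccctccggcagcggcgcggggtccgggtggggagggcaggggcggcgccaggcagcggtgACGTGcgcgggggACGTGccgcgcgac
Pdk1: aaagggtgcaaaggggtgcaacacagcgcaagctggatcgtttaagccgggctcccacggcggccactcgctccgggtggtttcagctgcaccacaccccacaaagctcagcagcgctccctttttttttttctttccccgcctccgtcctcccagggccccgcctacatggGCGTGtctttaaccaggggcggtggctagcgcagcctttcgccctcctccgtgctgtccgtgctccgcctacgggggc
Ldha: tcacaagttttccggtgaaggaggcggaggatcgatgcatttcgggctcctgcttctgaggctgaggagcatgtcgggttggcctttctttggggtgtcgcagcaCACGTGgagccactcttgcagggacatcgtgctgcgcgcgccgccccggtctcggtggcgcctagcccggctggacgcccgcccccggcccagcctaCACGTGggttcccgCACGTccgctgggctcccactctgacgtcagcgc
*Slc16a3* had 2 matches, at -27 and -14 from the start, *Pdk1* had 1 at -78, and *Ldha* had 5, which include overlapping matches on opposite strands where the letters are a palindrome. Over the tested genes of the list 17 of 22 with an entry held a match (77.3%), against 4108 of 6773 (60.7%) over the tested genes with an entry. Both use the first start of each gene. Of all 32851 windows 38.6% held one, but these include untested genes and further starts, so that share is no like comparison. A match is a run of letters and was not related to binding here.

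Stress and cell death genes gave few calls. Of 15 tested p53 targets and death genes 2 were called higher, *Ddit4*, an inhibitor of mTORC1 that is induced by hypoxia and stress, at 26.2 and 45.2 CPM (log2 0.79, 0.45 to 1.14), and *Plk2*, a kinase gene, with a log2 ratio of 0.68 (0.02 to 1.38), which was 0.38 without edge members and 0.27 in alar members. The median was 0.06, and *Bax* and *Trp53* had log2 ratios of -0.05 and -0.08. Of 9 heat shock and immediate early genes *Dusp1* was called higher, at 9.37 and 14.9 CPM, with a log2 ratio of 0.42 in thinned members, and *Hsp90ab1* stood at 5054 and 5226. The share of mitochondrial UMIs had medians of 3.14% and 3.04%.

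Several of the largest ratios were seen in Otx2-negative progenitors of the same libraries too. *Arhgap6*, a GTPase-activating protein gene, and *Gm15261*, annotated antisense within it, overlap on the X chromosome (chrX:168795099-169304435 and chrX:169037674-169106536), and the strand setting of the counts was not given in the sources used here, so their reads may not be separable. *Gm15261* had 3 control and 2183 mutant UMIs and *Arhgap6* had 1 and 789. *Gm15261* stood at 0.470 and 317 CPM in Otx2-negative progenitors. *Hccs*, which overlaps the same locus, had log2 ratios of 0.98 in the members and 1.00 in Otx2-negative progenitors. *Scg5*, a secretory granule chaperone gene, had 1.54 and 1.07, *Snhg3*, a snoRNA host gene, had 1.36 and 1.33, and *Fbxo44* had 1.68 and 0.80. *Dynlt1f* and *AA465934* had 1.06 and 1.03 in the members and 0.94 and 1.39 in Otx2-negative progenitors.

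On the lower side, *Hist1h2ak*, a replication-dependent histone gene, stood at 52.1 CPM (44.9 to 60.1) and 6.94 CPM (5.08 to 9.25) in the members, and at 38.6 and 6.31 in Otx2-negative progenitors. *Hist1h2ap* stood at 583 and 351 CPM in the members. Histone genes of this cluster are near-identical copies, so their counts are uncertain. *Rad51b*, a gene of homologous recombination, stood at 50.4 and 18.4 CPM in the members and 27.3 and 13.9 in Otx2-negative progenitors, and *AC149090.1* at 71.7 and 34.2 in the members and 72.4 and 50.1. *Gm21887*, an X-linked locus, had log2 ratios of -1.22 and -1.64.

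Position on the genome was counted because the mutants were made on a mixed background and differ in sex from the controls. Of 141 tested genes within 20 Mb of *Tfap2a* 1 was called higher and 7 lower (5.67%). They include *Neurog1* and a group of *Hist1h* genes 17.0 to 19.0 Mb away. Of 60 tested genes within 20 Mb of *Tfap2b* none was called. Of 284 genes on X 5 were called higher and 7 lower (4.23%), and 4 of 5 on Y were higher. Over the remaining 7941 genes 73 were called higher and 82 lower (1.95%). Alleles linked to the floxed locus were not tested as a part of the *Neurog1* difference. *Neurog2*, *Pax6* and *Helt* lie on other chromosomes, 3, 2 and 8.

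Markers of blood, vessels, epithelium and pigment cells were near 0. Blood genes summed to 32 control and 14 mutant UMIs over all members, endothelial and myeloid genes to 6 and 25, epithelial genes to 55 and 103, and pigment genes to 6 and 9. Among mesenchyme genes outside the gate, *Col3a1* had 9 and 52 UMIs and *Postn* 1 and 21. The glia list summed to 1006 and 1217 CPM, of which *Fabp7*, also a gene of radial progenitors, was the main part, the neuron list to 310 and 297 CPM, and the mesenchyme list to 109 and 78.3 CPM. Of 6 tested neuron genes *Elavl4* was called lower, and *Tubb3* stood at 81.6 and 71.2 CPM. *Ednrb*, among the glia genes, stood at 60.1 and 81.3 CPM. The lists of facial genes that the study picked, in part on these libraries, had 4 and 3 tested members here, none of them called, and are no independent evidence of a direction. They include *Pax3*, *Crabp1* and *Msx1*, with log2 ratios of 0.07, 0.33 and 0.11, and *Foxp1* and *Col2a1*, with -0.04 and 0.05.

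*Cck*, which encodes the neuropeptide cholecystokinin, was one of the 10 highest genes and came from few cells. It had 7 UMIs in 2 control members and 177 UMIs in 8 mutant members, 1.93 CPM (0.776 to 3.98) and 26.7 CPM (22.9 to 30.9). Dorsal midline members held 174 of the mutant UMIs, and alar and neurogenic members held 174 each, since the domains overlap. With the sum of *Sox2*, *Sox3* and *Hes5* set to at least 6 UMIs its log2 ratio was -1.10, so the value rests on cells near the edge of the gate. At 5000 UMIs per cell 0.702% of control and 0.556% of mutant members had a *Cck* UMI.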

How the data were processed

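Single-cell 3′ libraries (10x Genomics, v3.1 chemistry) of sorted GFP-positive head cells were analysed, 1 control and 1 mutant, each from 2 pooled E11.5 embryos. The values are raw UMI counts per gene and cell, deposited by the authors as filtered matrices that Cell Ranger (6.0.0 in the file header) made on mm10. The submitters' processing notes also name bcl2fastq and Seurat 4.3.0. The counting strand was not given in the sources used here.

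Barcodes with 200 to 7500 genes and at most 10% mitochondrial UMIs were kept. Member counts were summed per library, scaled to CPM and compared as log2 ratios with exact conditional binomial intervals (95%), and shares have exact Clopper-Pearson intervals. Genes with at least 100 UMIs summed over both libraries were compared, gate genes left out, and a gene was called at 1.5-fold. A sum of 0 was set to a floor of 3 counts for the call. For shares of cells with a UMI, cells were thinned to 5000 UMIs, which left out 2 control and 7 mutant members. Doublets were marked with Scrublet (scanpy 1.11.5), not removed, and make up 1.65% and 3.06% of kept cells. Python 3.11.15, scipy 1.17.1, edgeR 4.0.16 (TMM factors only) and DESeq2 1.42.0 (size factors only) were used, and gene positions came from GENCODE M21. The ratio script was tested on simulated data.

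The text names the *Tfap2* family, each list's called genes and its 4 most abundant, the 10 highest and 10 lowest genes by interval bound, and the 10 genes highest and lowest against Otx2-negative progenitors. Any other gene was picked with its values in view. Some genes that these rules name are not reported here. The members and lists were chosen with earlier results of these data known. Alternatives covered the scaling, count filter, cell depth, doublets, gate and edge domains.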

Additional observations from a re-analysis of the deposited data

Results flagged for a closer look

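Igfbp5, En1, Helt and Cck were called in Otx2-positive members and had the opposite direction in Otx2-negative progenitors of the same libraries, with both counting intervals on one side of 0. The differences between the populations were not tested, and each rests on 1 library a group. *Igfbp5* had a log2 ratio of -0.82 (-1.06 to -0.59) in the members and 0.71 (0.29 to 1.14) in Otx2-negative progenitors, from 74 control and 135 mutant UMIs. *En1* had -0.98 (-1.51 to -0.46) in the members and 0.55 (0.03 to 1.07) in Otx2-negative progenitors, from 52 and 85 UMIs. Without edge members it had -0.06 in the members, from 8 and 16 UMIs. *Helt* had 0.65 (0.28 to 1.04) in the members and 7 control and 0 mutant UMIs in Otx2-negative progenitors. *Cck* had 3.79 (2.72 to 5.13) in the members and -5.12 (-10.46 to -2.53) in Otx2-negative progenitors, where 31 control UMIs and 1 mutant UMI were found.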

How the results depend on the processing

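No paired analysis was possible because each group was 1 library, and for the same reason no replicate could be left out. TMM and DESeq2 scaling changed no gene's call among the 179 genes followed and shifted the median of all genes by less than 0.1 on the log2 scale. Over these genes 2004 values stayed within their counting interval, 111 moved, and 5 turned. Among the genes followed, 78 differed by 1.5-fold or more when the count filter was not applied. They include genes too sparse to be called, such as *Hba-a1* and *Hoxb2*. Of the 78, 41 came under 1.5-fold in at least 1 alternative.

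The counts of called genes (83 higher, 96 lower) depended most on the count filter and on how many cells were kept, since fewer counts per gene spread the ratios. They were 737 higher and 778 lower at 10 UMIs, 24 and 18 at 300 UMIs, 294 and 295 in thinned members, and 230 and 296 without *Elavl3* or *Stmn2* UMIs. With 100 UMIs required in one library alone 59 were higher and 38 lower. Mutant members held more UMIs, 6630617 against 3628288, so genes high in the mutant reach this filter more easily. Chosen after seeing the data, alar members alone gave 152 and 190, and members outside the forebrain and isthmus sides gave 130 higher and 142 lower.

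The forebrain and eye list (median -0.99) had -1.30 without mesenchyme gate UMIs and -0.39 without edge members. The mesenchyme list, which is *Dlk1*, had -0.37 with the progenitor sum at 6 or more, 0.30 in alar members and -0.21 without edge members. The ventral list had -0.36 in alar members. Without edge members *Apcdd1* turned from -0.69 to 0.084, *Rmst* from -0.70 to 0.12 and *Pax5*, which helps to choose those members and kept 1 control and 15 mutant UMIs, to 2.84 (0.14 to 8.24), and *Cck* turned to -1.10 at the higher progenitor sum.

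The mutant share of members was 8.83% when every cell was thinned before the gate and 9.02% with no barcode filter. Thinned before the gate, control and mutant shares were 29.9% and 30.1% alar, 5.22% and 2.30% forebrain side, 2.99% and 0.628% isthmus side, and 28.0% and 22.6% neurogenic, and the mutant dorsal midline share was 10.0%. With 1 library a group, no spread between embryos could be measured.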

Other observations

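Some further genes, named after their values were seen, differed by more than 1.5-fold in the members. *Gt(ROSA)26Sor*, the locus of the reporter, which both groups carry in 2 copies, stood at 23.4 CPM (18.7 to 29.0) in control and 44.2 CPM (39.3 to 49.5) in mutant members, and at 23.5 and 37.9 CPM in Otx2-negative progenitors. It is annotated antisense to the neighbouring gene *Thumpd3*, and the counting strand was not given, so reads of the overlap may not be separable. *Rps18*, a ribosomal protein gene, stood at 957 and 1536 CPM in the members and 939 and 1309 CPM in Otx2-negative progenitors. *Igfbpl1*, a gene of the insulin-like growth factor binding protein family, stood at 24.8 and 12.5 CPM in the members, and at 16.9 and 16.4 CPM in Otx2-negative progenitors.

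*Rmst* and *Ednrb* differed with the domain or population. *Rmst*, a long non-coding RNA of the midbrain and forebrain midline, stood at 96.5 and 59.6 CPM over all members and at 369 and 303 CPM in dorsal midline members. In isthmus side members it stood at 230 and 92.6 CPM, a log2 ratio of -1.31 (-1.80 to -0.84), and in forebrain side members at 330 and 296 CPM. *Ednrb*, the endothelin receptor gene known for its part in neural crest, was higher within 1.5-fold in both progenitor populations, with log2 ratios of 0.44 (0.21 to 0.67) in the members and 0.32 in Otx2-negative progenitors.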
